A study of Mus musculus with 6 samples.

Results

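The transcripts described here are those of the adult haemoglobin chains and of Alas2 in 3 tissues of Atxn2 knockout and wild-type mice. The members were the alpha-globin genes Hba-a1 and Hba-a2, the beta-globin entries Beta-s, Hbb-b1 and Hbb-b2, and Alas2. They were chosen because earlier results of these same data showed globin tags to be higher in the knockout, so every knockout to wild-type value below describes the choice and carries no test. The 6 gene names took 10 of the 30433 RefSeq rows of the combined count table, namely 3 alpha rows, 6 beta rows and 1 Alas2 row. Of these rows, 1 alpha row and 3 beta rows join records of several globins that a tag matched equally well, and they were kept joint. The Alas2 row joins records of that 1 gene. No row joined a listed gene to any other record.

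The mice were C57BL/6 and were either homozygous for an Atxn2 knockout (Atxn2-KO) or wild type (WT). Each genotype gave 1 library from cerebellum, 1 from hippocampus and 1 from liver, and each library pooled 3 animals of 6 months. The labels do not say which stretch of Atxn2 the allele lacks, and the protocol text names midbrain and younger ages, where the sample labels were followed. Paired values below run cerebellum, hippocampus, liver, with the Atxn2-KO library before the WT library in each pair. MACE (massive analysis of cDNA ends) counts 1 tag near the 3′ end of a transcript whatever its length, so comparisons between genes need no correction for length. Other differences between genes in how tags are gained or assigned were not assessed.

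Adult haemoglobin is a tetramer of alpha and beta chains, each holding a haem group, and red cells keep their production in balance because a free chain of either kind is harmful. Alas2 is the erythroid form of 5-aminolevulinate synthase, the first and rate-limiting enzyme of haem synthesis in red cell precursors, while Alas1 is the form of other tissues. Reticulocytes in blood still hold globin mRNA, and tissue taken without washing out the blood contains it. In such bulk samples, fewer cells of a type and less RNA per cell cannot be told apart.

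Positions follow RefSeq on GRCm38.p6. Hba-a1 lies at chr11:32283672-32284486 and Hba-a2 at chr11:32296492-32297310, both on the forward strand. The record that the tables call Beta-s is Hbb-bs in the RefSeq table, at chr7:103826523-103827928 on the reverse strand. The record that the tables call Hbb-b1 is assigned there to Hbb-bt, at chr7:103812524-103813923 on the same strand. C57BL/6 mice are known to carry this pair of beta genes, Hbb-bs and Hbb-bt, whereas the record called Hbb-b2 is placed on an alternate chromosome 7 sequence and its tags could not be assigned to either gene. Alas2 lies on the X chromosome at chrX:150547417-150570622, on the forward strand.

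The promoters of a gene from each chain and of Alas2 are shown because both chains and Alas2 were lower in hippocampus than in cerebellum. Each is the stretch of 250 bases before the RefSeq start (GRCm38.p6), 5′ to 3′ on the gene's strand. Capitals mark, on either strand, the GATA factor letters GATAA, the Klf letters CACCC, the CAAT box letters CCAAT and the TATA box letters TATAA, and neighbouring matches can overlap.
Hba-a1, chr11:32283422-32283671, forward: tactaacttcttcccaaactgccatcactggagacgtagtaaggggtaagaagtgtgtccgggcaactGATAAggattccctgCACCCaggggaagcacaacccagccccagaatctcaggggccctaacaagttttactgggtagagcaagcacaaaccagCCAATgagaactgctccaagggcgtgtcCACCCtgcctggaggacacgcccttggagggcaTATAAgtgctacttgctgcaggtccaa
Hbb-bs, chr7:103827929-103828178, reverse: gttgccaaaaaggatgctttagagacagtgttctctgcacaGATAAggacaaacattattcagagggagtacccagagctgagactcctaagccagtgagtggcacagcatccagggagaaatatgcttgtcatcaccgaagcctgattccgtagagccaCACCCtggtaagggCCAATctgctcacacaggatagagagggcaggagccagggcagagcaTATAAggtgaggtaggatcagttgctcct
Hbb-bt, chr7:103813924-103814173, reverse: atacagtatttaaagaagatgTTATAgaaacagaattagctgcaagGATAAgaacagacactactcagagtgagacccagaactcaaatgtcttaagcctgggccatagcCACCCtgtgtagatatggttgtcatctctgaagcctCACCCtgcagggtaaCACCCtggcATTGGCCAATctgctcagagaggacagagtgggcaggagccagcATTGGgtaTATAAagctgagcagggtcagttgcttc
Alas2, chrX:150547167-150547416, forward: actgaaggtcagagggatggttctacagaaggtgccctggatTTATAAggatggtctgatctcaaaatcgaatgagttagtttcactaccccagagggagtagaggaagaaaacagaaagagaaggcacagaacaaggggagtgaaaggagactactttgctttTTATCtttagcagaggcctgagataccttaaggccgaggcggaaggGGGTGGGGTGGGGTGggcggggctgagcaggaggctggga
GATAA stood in all 4 stretches, and in 22.6% of the 32851 promoters of this length. CACCC stood in all 4 as well and in 52.0% of promoters. CCAAT, which 33.8% of promoters held, was in the 3 globin stretches and not in that of Alas2. TATAA, held by 22.8%, began 27 bases before the start in Hba-a1, 29 in Hbb-bs and 28 in Hbb-bt, and 207 bases before it in Alas2. The stretch of Hba-a2 was identical to that of Hba-a1 over all 247 bases that aligned, while those of Hbb-bs and Hbb-bt were 75.2% identical. These are matches of letters, and binding was not measured.

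The transcripts of a chain differ little in their coding part, which bears on how tags could be assigned. In the GENCODE transcripts (GRCm38), the coding sequences of Hba-a1 and Hba-a2 have 429 bases each and differ at 1 of them, C381T, counted from the A of the start codon with the base of Hba-a1 first. Those of Hbb-bs and Hbb-bt have 444 bases each and also differ at 1, C417T, with the base of Hbb-bs first. The differing base is in capitals, with 20 coding bases on either side.
Hba-a1: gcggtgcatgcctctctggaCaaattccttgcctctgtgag
Hba-a2: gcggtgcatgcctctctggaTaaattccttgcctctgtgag
Hbb-bs: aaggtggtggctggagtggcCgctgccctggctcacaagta
Hbb-bt: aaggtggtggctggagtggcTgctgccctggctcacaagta
The chains part after the stop codon, where a 3′ tag can lie. There the alpha transcripts were identical over all 74 bases that aligned, whereas the beta transcripts were 72.9% identical, with 35 of 129 aligned bases different. Of the 50-base windows of the whole Hba-a2 transcript, 86.9% also occur in Hba-a1, and of those of Hbb-bs 65.8% also occur in Hbb-bt.

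Gene tags (sense tags on RefSeq mRNA rows) numbered 1774523 to 2727523 per library. Atxn2 itself had 0 and 167 tags in the cerebellum pair, 1 and 194 in the hippocampus pair, and 2 and 115 in the liver pair, so the labels hold for the targeted gene. The tissue labels were borne out by their markers, with 9 of 10 hippocampus markers higher in hippocampus than in cerebellum and 10 of 10 cerebellum markers lower. Of all features tested, 15.8% were higher in hippocampus and 13.8% higher in cerebellum. Xist, the X-inactivation transcript of female cells, was at 0 tags in the 3 knockout libraries and at 34, 49 and 87 in wild type, while Y-linked Ddx3y was present in all 6, so sex and genotype cannot be told apart in any knockout to wild-type value. Liver transcripts were present in the brain libraries: summed over 10 liver markers, they stood at 420 to 4073 CPM there, lower in the knockout of both brain regions, and at 176992 or more in liver. The largest of them in cerebellum was Ttr (7929 and 11823 tags), also a choroid plexus gene. CPM here is the usual rate of tags per library size, taken over gene tags after TMM scaling, which adjusts library sizes on the assumption that most genes do not differ.

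Globin tags made up 0.755% and 0.551% of gene tags in the cerebellum pair, 0.178% and 0.112% in the hippocampus pair, and 0.247% and 0.147% in the liver pair. Most alpha tags fell in the joint Hba-a1/Hba-a2 row. Its tags numbered 7766 and 5266 for cerebellum, 1763 and 989 for hippocampus, and 1986 and 1687 for liver. After scaling these were 2405, 1579, 583, 353, 2148 and 1091 CPM in the same order, so both cerebellum libraries lay above both hippocampus libraries. In knockout cerebellum the row ranked 6th of 22924 features by tags, and in wild-type hippocampus 343rd. The rows of 1 alpha record were far smaller and, after TMM scaling, were likewise lowest in hippocampus. Hba-a1 alone had 696 and 482 tags (cerebellum), 177 and 82 (hippocampus), and 179 and 131 (liver). Hba-a2 alone had 686 and 517, 154 and 99, and 206 and 165.

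Most beta tags fell in the Beta-s row. Beta-s had 6891 and 5636 tags (cerebellum), 1768 and 1027 (hippocampus), and 1665 and 1701 (liver). Scaled, these were 2134, 1689, 585, 367, 1800 and 1100 CPM, again with both cerebellum libraries above both hippocampus libraries with knockout liver between the cerebellum libraries and wild-type liver below both. Hbb-b1 had 517 and 461, 127 and 66, and 134 and 105 tags in the same order. Hbb-b2 had 666 and 617, 168 and 134, and 207 and 202. The 3 rows that join beta records were sparse, with 28, 24, 7, 2, 7 and 7 tags for Hbb-b1/Hbb-b2, between 0 and 8 for Beta-s/Hbb-b1, and 0 or 2 for the row of all 3 records.

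Alas2 followed another order. It had 52 and 43 tags (cerebellum), 12 and 8 (hippocampus), and 201 and 223 (liver). In CPM the pairs were 16.1 and 12.9, 3.97 and 2.86, and 217 and 144, so the liver libraries stood far above all others and did not overlap with them. Antisense tags of the members numbered 0 to 3 per library.

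**Figure D1:**
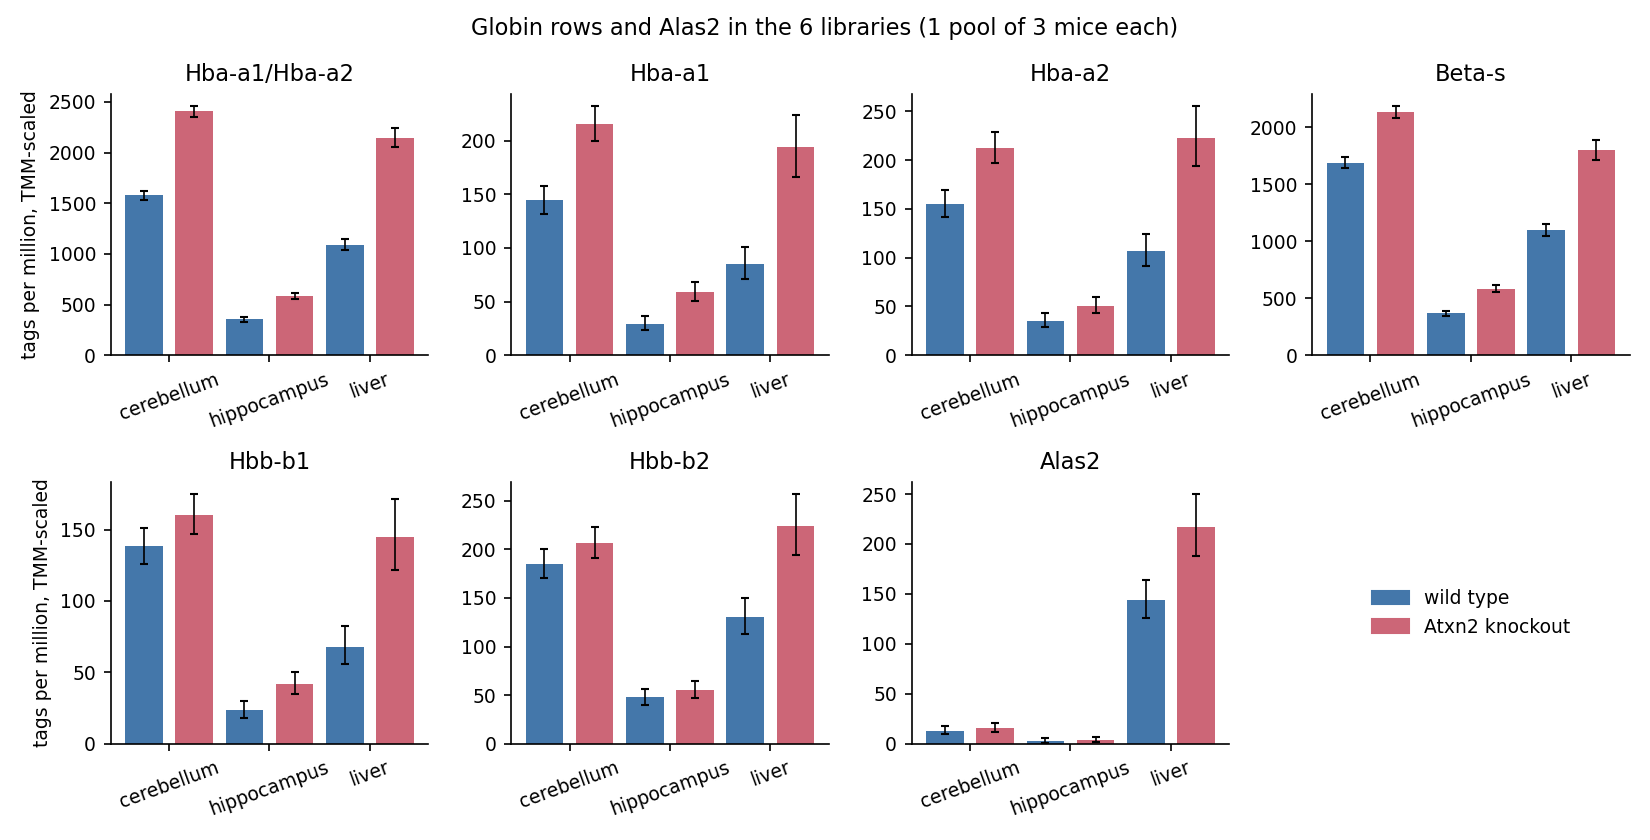
CPM after TMM scaling (y axis, from 0) for the 6 larger globin rows and Alas2 in each tissue (x axis), with blue bars for wild type, red bars for the Atxn2 knockout and error bars for the exact 95% counting interval of 1 library. The globin rows are lowest in hippocampus and Alas2 is highest in liver, at 217 and 144 CPM.

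Between tissues, which the choice of members did not use, both chains and Alas2 were lower in hippocampus than in cerebellum. The difference was fitted with edgeR's quasi-likelihood test over 12906 features, with the genotype as block and Benjamini-Hochberg adjustment. The 7 globin rows that passed the filter on low counts were all lower in hippocampus, while 13.8% of all features were higher in cerebellum and 29.7% differed in either direction. Their log2 differences ran from -2.35 to -1.93, beside a median of all features of -0.00. The log2 difference was -2.10 for the joint alpha row (SE 0.28, edgeR adjusted p = 2.06e-06) and -2.04 for Beta-s (SE 0.28, edgeR adjusted p = 2.79e-06). Alas2 differed by about as much, at -2.08 (SE 0.33, edgeR adjusted p = 2.23e-05). Cerebellum exceeded hippocampus in both genotypes, 4.13-fold in knockout and 4.47-fold in wild type for joint alpha, and 3.65-fold and 4.61-fold for Beta-s. Scaling by library totals kept the calls of both rows, with log2 differences of -2.22 for joint alpha and -2.16 for Beta-s.

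Liver and hippocampus differed in all 7 globin rows under TMM scaling, with liver higher by log2 1.60 to 1.93, while 34.3% of all features were higher in liver and 68.5% differed in either direction. Joint alpha was higher by 1.76 (SE 0.28, edgeR adjusted p = 5.89e-06) and Beta-s by 1.60 (SE 0.28, edgeR adjusted p = 1.69e-05). These sizes rest on the scaling, with TMM factors of 0.521 and 0.567 in liver and 1.29 to 1.41 in the brain regions. With library totals the median of all features moved from -0.07 to -1.32, and the calls went from 4422 higher and 4424 lower in liver to 2181 and 8034. Joint alpha then differed by 0.50 (edgeR adjusted p = 0.0363) and Beta-s by 0.34 (edgeR adjusted p = 0.14), so the Beta-s call was lost, as were those of Hba-a1 (0.37, edgeR adjusted p = 0.0953) and Hbb-b1 (0.39, edgeR adjusted p = 0.111). Relative to that median the rows still lay above it by a similar distance.

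For the globins, liver and cerebellum were close under TMM scaling. Of the 7 rows, 2 were lower in liver, against 34.5% of all features higher in cerebellum and 68.0% different in either direction, and 0 were higher. Those 2 were Hba-a1, with a log2 of -0.45 (SE 0.18, edgeR adjusted p = 0.0316), and Hbb-b1, with -0.58 (SE 0.20, edgeR adjusted p = 0.013). Both calls were lost without the wild-type liver library (log2 -0.21 and -0.23, edgeR adjusted p = 0.395 and 0.375) and without the wild-type cerebellum library (-0.27 for each, edgeR adjusted p = 0.436 and 0.435). The larger rows did not pass, at -0.35 for joint alpha (SE 0.27, edgeR adjusted p = 0.267) and -0.44 for Beta-s (SE 0.27, edgeR adjusted p = 0.159). With library totals both passed, at -1.73 and -1.81, while the median of all features moved from -0.10 to -1.46 and the calls from 4327 higher and 4455 lower in liver to 2015 and 8585. Whether the larger rows passed between liver and cerebellum therefore depended on the scaling.

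Alas2 was higher in liver than in either brain region. It exceeded cerebellum by a log2 of 3.62 (SE 0.20, edgeR adjusted p = 4.59e-14), where 33.5% of features were higher in liver, and hippocampus by 5.70 (SE 0.26, edgeR adjusted p = 1.19e-15). With library totals the differences were 2.24 (edgeR adjusted p = 4.92e-09) and 4.44 (edgeR adjusted p = 7.13e-12), and both calls held. The fold of liver over cerebellum was 13.5 in knockout and 11.2 in wild type.

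**Figure D2:**
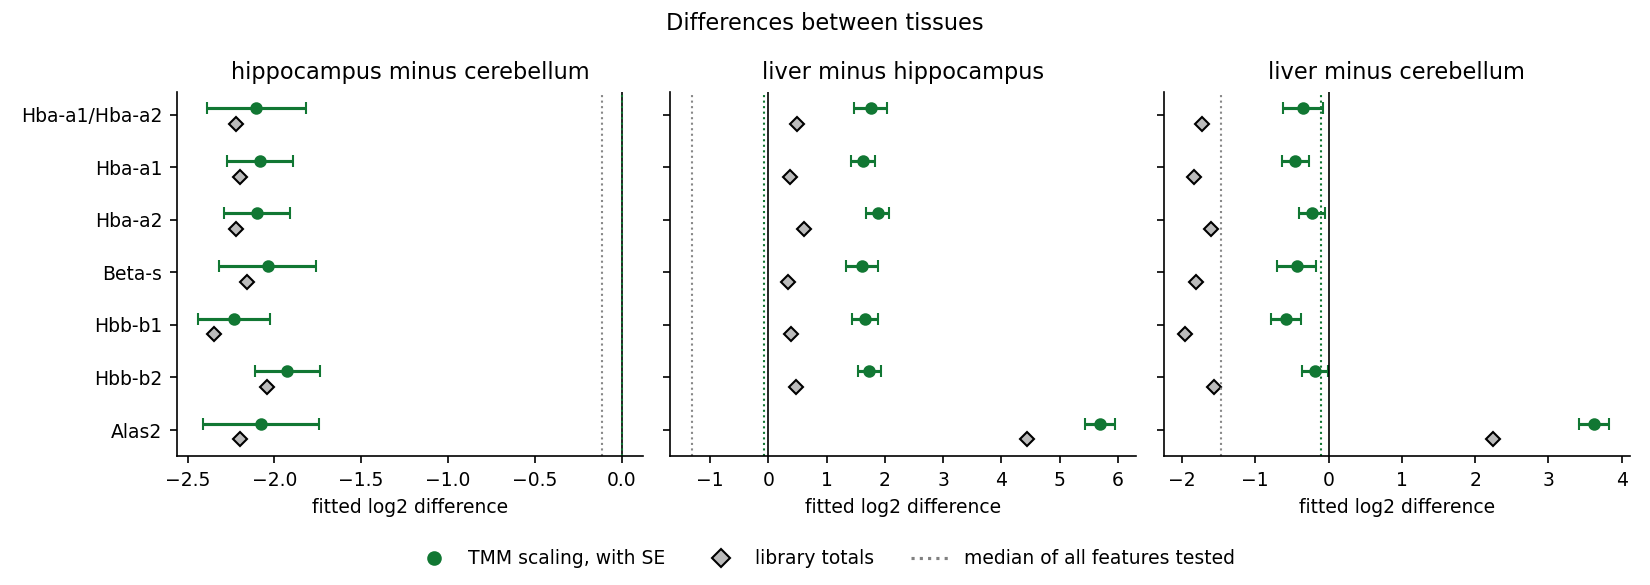
Fitted log2 differences between tissues (x axis) for the 6 larger globin rows and Alas2 (y axis), with TMM scaling (green circles, bars for the standard error) and with library totals (grey diamonds), and dotted lines for the median of all features under each scaling. Globin rows are near -2 in hippocampus minus cerebellum under both scalings, while in the panels with liver the scaling shifts rows and median together.

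A ratio within a library needs no scaling. Per 1000 globin tags there were 3.01 and 3.31 Alas2 tags in the cerebellum pair (exact 95% counting intervals 2.25 to 3.95 and 2.39 to 4.46). The hippocampus pair had 2.88 and 3.33, and the liver pair 45.8 and 55.8 (39.6 to 52.8 and 48.5 to 63.8). The 4 brain libraries overlapped in their intervals and the liver libraries lay apart from them. Liver exceeded cerebellum 15.2-fold in knockout and 16.9-fold in wild type, and hippocampus 15.9-fold and 16.7-fold. Intervals here and below cover counting error only.

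The makeup of each chain varied little over the libraries. The joint row held 83.8% to 85.1% of alpha tags, Hba-a1 alone 6.61% to 8.45% and Hba-a2 alone 7.35% to 8.69%. Among beta tags Beta-s held 82.6% to 85.3%, Hbb-b2 8.11% to 10.9% and Hbb-b1 5.21% to 6.84%. Joint rows took only 0.325% to 0.468% of beta tags. The share of joint tags thus differed widely between the chains, as did the likeness of their transcripts after the stop codon given above.

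The 2 chains were close to parity in tags. The beta to alpha tag ratio was 0.887 and 1.08 for cerebellum, 0.989 and 1.05 for hippocampus, and 0.850 and 1.02 for liver. The knockout library was the lower in each tissue. The knockout ratio divided by the wild-type ratio was 0.824 for cerebellum (95% counting interval 0.787 to 0.862), 0.940 for hippocampus (0.851 to 1.04) and 0.836 for liver (0.768 to 0.911), so in hippocampus the interval included equality. Each ratio compares 2 libraries and carries no test. Counting only rows of 1 record, the ratio would be 5.21 to 6.78, since that leaves out most alpha tags and few beta tags.

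**Figure D3:**
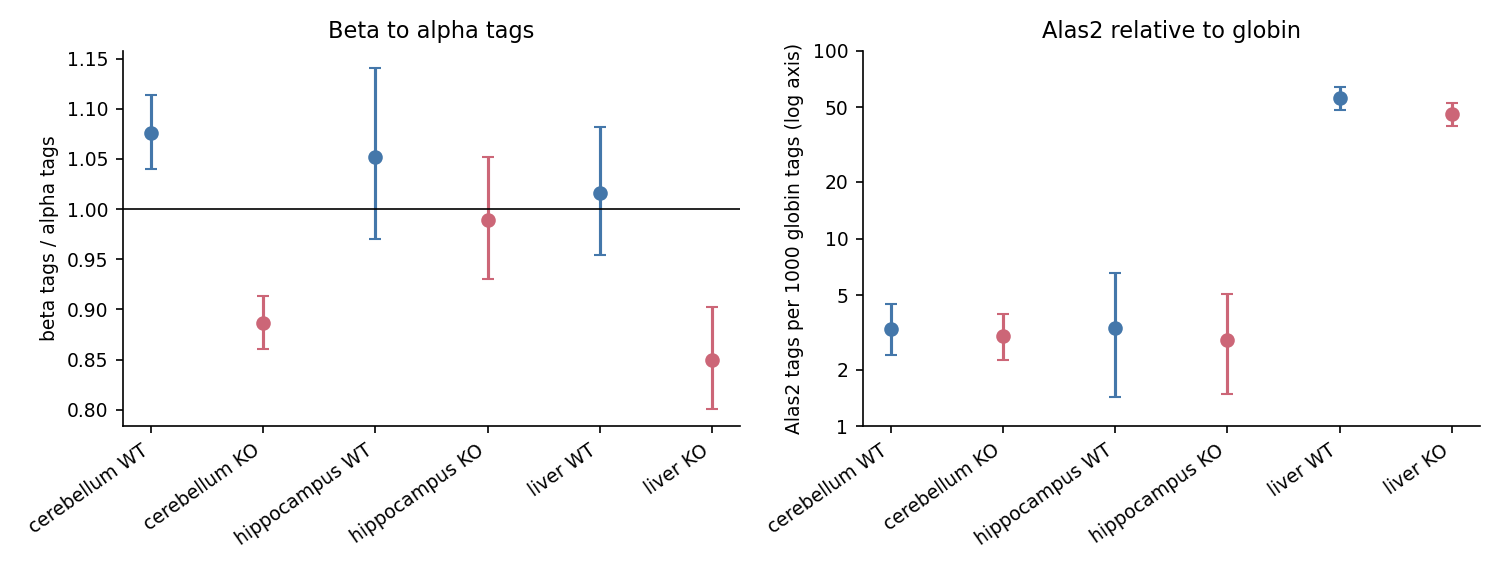
Left, beta tags divided by alpha tags in each library; right, Alas2 tags per 1000 globin tags on a log axis, both with 95% counting intervals (blue for wild type, red for knockout). The knockout ratio of beta to alpha is the lower one in each tissue, from 0.850 to 0.989, and the liver libraries stand apart in Alas2 at 45.8 and 55.8.

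Knockout levels of both chains lay above wild type in each tissue, and least so in cerebellum. For all alpha tags the log2 ratio of knockout to wild type was 0.59 for cerebellum (95% counting interval 0.55 to 0.64), 0.73 for hippocampus (0.62 to 0.83) and 1.00 for liver (0.91 to 1.09). For all beta tags it was 0.31 (0.27 to 0.36), 0.64 (0.54 to 0.74) and 0.74 (0.65 to 0.83). Alpha thus exceeded beta in each tissue, and in cerebellum and liver their intervals did not overlap.

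Hba-a1 stood at 0.58, 1.00 and 1.19 in cerebellum, hippocampus and liver, the largest of the 6 rows in hippocampus and liver. Hba-a2 stood at 0.46, 0.53 and 1.06, and Hbb-b1 at 0.21, 0.83 and 1.09. Hbb-b2 had the smallest in cerebellum and hippocampus, at 0.16 and 0.21, with intervals that included equality, and stood at 0.78 in liver. The interval lay above equality in 5 of the 6 larger globin rows in cerebellum, 5 in hippocampus and 6 in liver. Among features with a mean of at least 10 CPM this held for 7.10%, 12.4% and 12.2%, and for 0.914% in all 3 tissues together. The median ratio of all these features was -0.01, 0.01 and -0.02.

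The liver ratio moved with the scaling. With library totals it was 0.88 for alpha and 0.62 for beta, and with DESeq2's size factors (RLE) 1.10 and 0.85. For beta the order of liver and hippocampus turned with it, since hippocampus stood at 0.625 against 0.620 in liver with library totals, and at 0.667 against 0.624 with all tags as library size. For alpha liver remained the highest under each of these scalings. In raw tags the liver libraries had 2015 beta tags each, at 1774523 gene tags in knockout and 2727523 in wild type. Leaving the globin rows out of the library size moved no ratio of a summed chain by as much as its counting interval.

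Alas2 was higher in knockout by a log2 of 0.32 for cerebellum (-0.29 to 0.94), 0.47 for hippocampus (-0.94 to 1.97) and 0.59 for liver (0.31 to 0.87). Only the liver interval excluded equality, and at 12 and 8 tags a hippocampus ratio of this size could not be told from equality. Relative to globin tags Alas2 was lower in knockout in each tissue, as the ratios per 1000 globin tags show, with intervals that overlapped.

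**Figure D4:**
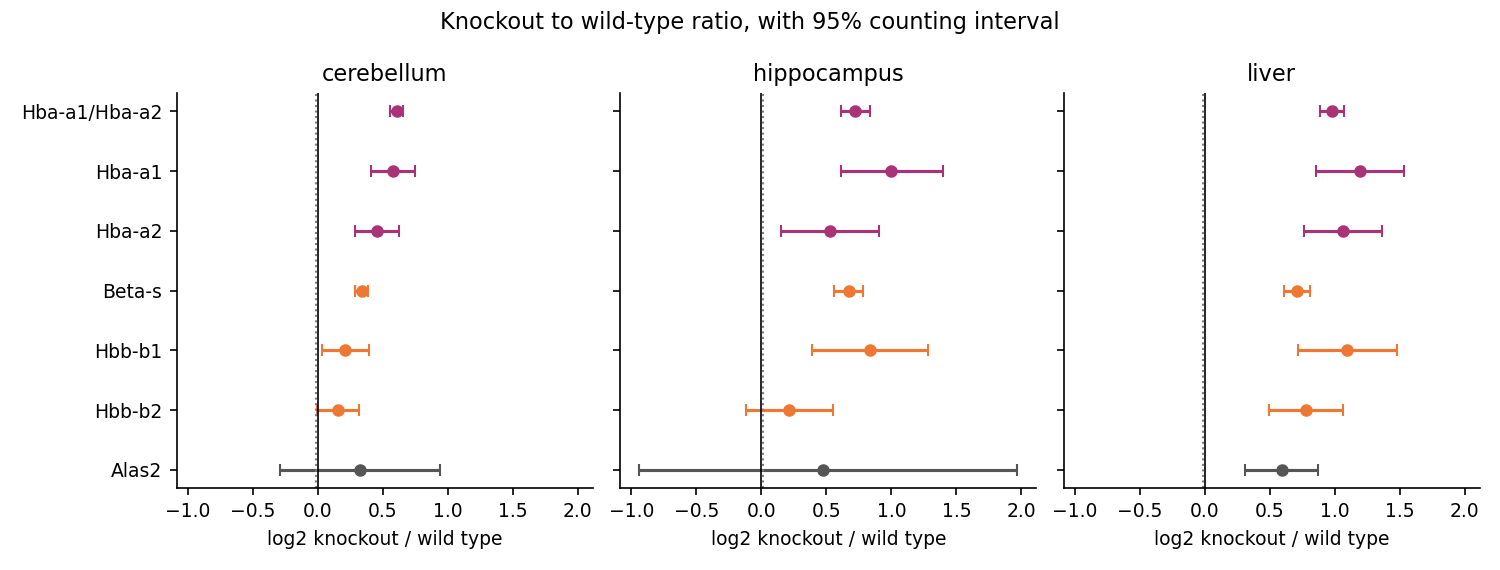
Log2 of knockout over wild-type CPM (x axis) for the 6 larger globin rows and Alas2 (y axis) in each tissue, with 95% counting intervals; the dotted line is the median of all features of at least 10 CPM. All points lie right of 0, and Hba-a1 reaches 1.19 in liver.

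Fitted over the 3 tissues with tissue as block, the log2 genotype difference was 0.88 for Hba-a1 (SE 0.15), 0.77 for the joint alpha row (SE 0.23), 0.67 for Hba-a2 (SE 0.15), 0.64 for Hbb-b1 (SE 0.17), 0.57 for Beta-s (SE 0.22), 0.50 for Alas2 (SE 0.18) and 0.37 for Hbb-b2 (SE 0.15). All 7 values were above 0, as were 49.3% of the 11375 features fitted, whose median was -0.00. At an adjusted p below 0.05 the fit listed 1 feature as higher in knockout, or 0.00879%, and 0.0967% in either direction. That 1 feature was Hba-a1, a member chosen on this contrast, so the listing is no evidence for it, and 0 features were listed as higher with RLE, with DESeq2, with no tissue block or with the rows of a chain summed. Without liver the values were 0.73 for Hba-a1, 0.48 for Hba-a2, 0.42 for Hbb-b1 and 0.18 for Hbb-b2. Without cerebellum Hba-a1 reached 1.07 and Hbb-b1 0.94.

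Of the 9 enzymes of haem synthesis, Alas2 included, 0 passed edgeR's test of the genotype after adjustment. At an unadjusted p below 0.05 there was 1, Alas2 itself, which was chosen on this contrast, and DESeq2 called 0. The median of the 9 was -0.09, and 2 lay above 0. Alas1 had the lowest value, -0.48 (SE 0.23), with 103 and 500 tags in the liver pair, against 153 and 149 in cerebellum. Alad stood at -0.03, Uros at 0.14, Urod at -0.03, Cpox at -0.09, Ppox at -0.29 and Fech, which inserts the iron, at -0.16.

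Between tissues, of these 9, 8 were higher in liver than in cerebellum under TMM scaling, where 33.5% of features were, and 0 lower. By edgeR, Alad was higher by a log2 of 3.16 (adjusted p = 2.15e-13), Cpox by 2.47 (adjusted p = 5.8e-12), Fech by 2.23 (adjusted p = 1.9e-10) and Alas1 by 2.19 (adjusted p = 8.9e-08). Urod (1.36) and Uros (1.08) passed as well, and Ppox, at 0.03, did not. These sizes rest on the scaling, since with library totals the median of all features moved from -0.10 to -1.46. Values of the enzymes other than Alas2 under library totals are not given here, so the smaller differences may not hold there. Alas2, at 3.62, had the largest difference of the 9. Between hippocampus and cerebellum 3 of 9 were lower in hippocampus, where 13.8% of features were, namely Alas2, Alad (-0.76, edgeR adjusted p = 0.00826) and Urod (-0.75, edgeR adjusted p = 0.0484).

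Over all the pathway lists without Alas2, 59 genes were fitted, 24 of them above 0, with a median of -0.03. By edgeR 0 passed after adjustment and 2 had an unadjusted p below 0.05, 1 in each direction, and DESeq2 called 0. Among 16 genes of haem and iron supply the highest was Aco1, the iron regulatory protein 1, at 0.19 (SE 0.17), and the lowest the mitochondrial iron importer Slc25a37, at -0.51 (SE 0.34). The most abundant were Tmem14c (0.13) and the liver transferrin receptor Tfr2 (0.13). Among 8 genes of globin assembly and haemoglobin clearance Hmox1, which degrades haem, stood at 0.70 (SE 0.34). Its log2 ratio was 0.29 in cerebellum (13 and 11 tags), -0.60 in hippocampus (10 and 14) and 1.39 in liver (50 and 32). Hpx and Hp, the plasma carriers of haem and of haemoglobin, stood at -1.01 (SE 0.44) and -0.45 (SE 0.53) over the 3 tissues. The tissues went in opposite directions. In liver both genes were higher in knockout after scaling, Hpx by a log2 of 0.47 and Hp by 1.31. Both were lower in knockout cerebellum (Hpx -1.31, Hp -0.65) and in knockout hippocampus (Hpx -2.60, Hp -2.93). The summed liver markers, Hp among them, were lower there too, at 0.68 and 0.25 times wild type in cerebellum and hippocampus. Alb, the albumin gene, stood at -0.76 and -2.54. The part of liver transcripts in the Hp and Hpx values of the brain libraries was not tested. Hpx had 45 and 115 tags in the cerebellum pair, 33 and 185 in the hippocampus pair, and 12129 and 14678 in the liver pair. Hp had 34 and 55, 17 and 120, and 10242 and 6914. Ahsp, the chaperone of free alpha chains, had 2 and 1 tags in cerebellum and 0 elsewhere.

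Among membrane and cytosol genes of red cells, Slc4a1, the band 3 anion exchanger, had 4 and 7 tags in cerebellum, 0 in both hippocampus libraries and 2 in either liver library. Of the 20 such genes fitted, 8 were above 0, and the lowest was Cat, the catalase gene (-0.40, SE 0.24). Of the 6 transcription factors and receptors fitted, 1 was above 0: Ldb1, a partner of the erythroid GATA factor, stood at 0.05, and the erythropoietin receptor Epor at -0.81 (SE 0.42). The most abundant of them, Zbtb7a, stood at -0.01. Klf1, the erythroid activator of the beta-globin gene, had 1 and 3 tags (cerebellum), 2 and 2 (hippocampus), and 6 and 13 (liver).

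Other globins had few tags, had no row under their name, or were unlike the members. Of the embryonic and minor chains only Hbq1a, theta globin, had a row with tags under its own name. It had 1 tag in knockout cerebellum and 1 in each hippocampus library. For the others, a missing name does not show that tags were absent. Cytoglobin (Cygb), a globin of fibroblast-like and other cells, had 201 and 215 tags (cerebellum), 244 and 201 (hippocampus), and 18 and 40 (liver), with a genotype value of -0.00. Neuroglobin (Ngb) had 21 and 12 tags in hippocampus, 3 in each cerebellum library and 0 in liver.

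Markers of other blood and vessel cells were read beside the globins. Summed over 13 measured neutrophil markers, CPM was 106 and 77.0 (cerebellum), 47.6 and 53.2 (hippocampus), and 261 and 132 (liver). The knockout sums were 1.38, 0.89 and 1.98 times wild type. Cxcr2 gave 32.4 and 28.6 CPM of the hippocampus sums. The largest of these markers in the liver pair was Lcn2, with 157 and 111 tags, a gene that liver also expresses. Lcn2 had 21 and 35 tags in cerebellum and 12 and 40 in hippocampus. Of these markers S100a8 had 125 and 57, 20 and 11, and 35 and 35 tags. Its fitted value was 0.97 (SE 0.22, edgeR adjusted p = 0.197). S100a9 had 56 and 24, 6 and 10, and 19 and 15 tags, so it was lower in knockout hippocampus. Mpo had 1 tag or 0, and no row with sense tags bore the name Elane. Summed over 8 platelet markers, CPM in knockout was 1.15, 1.05 and 1.18 times wild type in cerebellum, hippocampus and liver. Gp1bb gave 16.1 and 14.1 of the 27.6 and 24.0 CPM in cerebellum, and it had 0 tags in liver. Clec1b gave 27.0 and 27.2 of the 49.7 and 42.0 CPM in liver, so single genes weighed heavily in these sums. Itga2b was higher in knockout in each tissue, with 14 and 6, 9 and 4, and 8 and 7 tags. Pf4 had 14 and 16, 10 and 6, and 10 and 13. Tubb1 and Gp6 likewise had no row with tags under their names. A missing name can also mean another name or a joint row, so it was not read as 0 tags. For 14 endothelial markers the factors were 1.13, 1.07 and 0.96, and for 11 lymphocyte markers 1.22, 1.62 and 0.63, on sums of 4.29 to 49.8 CPM. The globin factors were 1.37, 1.61 and 1.83. The part that blood content, sex or the liver transcripts in the brain libraries play in the globin ratios was not tested.

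Over the 6 libraries, the levels of the single globin rows were nearly parallel. Pearson's r of log2(CPM + 1) with the summed globins was 0.98 or higher for each of the 6 larger rows and 0.63 for Alas2. Each globin row is part of that sum, which raises its r, and Alas2 is not, so these values are not like for like. Among the 9548 other features of at least 10 CPM, the most alike were Hat1 (r = 0.99), Hdac10, Nsmce4a, Pxn, Nrbp1, Dvl1, Dguok, Tarbp2, Mmgt1 and H2afy (r = 0.98 for the last). Their spans were smaller: Hat1 ran from 16.8 to 24.0 CPM. In their knockout to wild-type ratios the nearest of 6009 features was AU019823, at log2 0.42, 0.65 and 0.84 in cerebellum, hippocampus and liver, against 0.46, 0.68 and 0.88 for the summed globins. Thra, Rpp21, Y-linked Eif2s3y (0.58, 0.76 and 1.07), Tmem101, Sh3gl1, the joint row Churc1/Pbld1/Tapbpl, Pdcd2l, Hnrnph2 and 3010026O09Rik followed. The libraries are shared by all these values, so this likeness is a description only.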

How the data were processed

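MACE tag counts of 6 pooled libraries were analysed. The deposited values used are unnormalized tag counts for each RefSeq record on either strand (per the file headers). CASAVA 1.8.2 and mm9 are named in the submitters' processing notes, the tables themselves name a GRCm38 genomic set, and no aligner is given. Mitochondrial rows (9.29% to 12.9% of all tags), genomic rows (6.18% to 9.46%) and tags with no match (7.21% to 8.83%) were left out of every library size and fit because they carry no gene name. Single-tissue and combined tables gave the same sense counts (0 rows differ).

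Sense counts were summed per symbol to 22924 features, of which 4469 are joint. TMM scaling, filterByExpr and quasi-likelihood fits used edgeR 4.0.16, with Benjamini-Hochberg adjustment at 0.05. The genotype fit (11375 features) had tissue as block, and the tissue fit (12906 features) had genotype as block. The 3 libraries of a genotype carry the same animal numbers, so p-values here reflect how far tissues or genotypes agree, not the spread between animals. Within a tissue each genotype has 1 library, so no test was made, and exact 95% intervals cover counting error only. A share of 0 was limited by 3 counts.

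On simulated counts the genotype fit recovered 65.3% of genes changed 2-fold among 11375, with 9 false calls over all fold sizes, and the liver minus cerebellum fit 58% among 12906, with 8 false calls. The tissue simulation gave all libraries a shared mean and changed few genes, whereas 68.0% of features were called in the real contrast. Its recovery and false calls therefore need not hold for that contrast. The genotype fit of the real counts called 11 features in all. Alternatives were RLE, library totals, no filter, DESeq2 1.42.0, antisense tags added, the globins left out of the scaling, no block, and each tissue or library left out. The members and lists were chosen with earlier results of these data known. Named were every member row, all haem synthesis enzymes and other haemoglobin chains, and of each further pathway list the genes of at least 1 CPM with the highest and the lowest genotype value and the 2 most abundant. The 10 features most like the summed globins in level and in ratio were named too. Marker genes, Slc4a1, Klf1, Ahsp, Hmox1 and Ngb outside this rule were named after their values were seen. A few genes that the rule would name are not reported here. Sequences come from RefSeq (GRCm38.p6) and GENCODE vM21 (GRCm38).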

Additional observations from a re-analysis of the deposited data

How the results depend on the processing

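For knockout against wild type within a tissue, no paired analysis was possible because each group has 1 library and the genotypes are different animals. The tissue fit already pairs libraries of the same animal numbers, since its genotype block is the pool of animals. The genotype fit called 1 feature higher and 10 lower in knockout by edgeR. These counts were 0 and 5 with RLE (531 at an unadjusted p below 0.05), 26 and 71 with no filter, 0 and 2 with DESeq2 (125 unadjusted) and 0 and 0 with no tissue block (7 unadjusted). They were 5 and 17 without cerebellum, 21 and 36 without hippocampus and 17 and 89 without liver. With the rows of a chain summed, chosen after seeing the data, they were 0 and 10 (549 unadjusted), against 554 unadjusted in the fit reported. The causes were not tested. The liver ratio of knockout to wild type moved from a log2 of 1.00 to 1.10 for alpha and from 0.74 to 0.85 for beta with RLE, and to 0.88 and 0.62 both with library totals and with all tags as library size. With rows of 1 record the beta to alpha ratio was 5.84, 6.72, 6.23, 6.78, 5.21 and 6.78 in knockout and wild type of cerebellum, hippocampus and liver, because most alpha tags are then left out.

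In the tissue fit, library totals gave -1.73 for joint alpha and -1.81 for Beta-s in liver minus cerebellum (counts 2015 higher and 8585 lower), and 0.34 for Beta-s in liver minus hippocampus (2181 and 8034). For hippocampus minus cerebellum DESeq2 called 1151 higher and 783 lower, where edgeR called 2045 and 1787. Leaving out 1 library each, these counts ran from 967 to 2625 and from 816 to 2271. In liver minus cerebellum, Hba-a2 (0.075) and Hbb-b2 (0.126) turned positive without wild-type liver, from -0.22 and -0.19. Across the leave-one-out fits they ran from -0.49 to 0.075 and from -0.46 to 0.126. The Hba-a1 and Hbb-b1 calls of that contrast were also lost with DESeq2 (adjusted p = 0.185 and 0.151) and with no genotype block (edgeR adjusted p = 0.293 and 0.119), and that of Hba-a1 with RLE (edgeR adjusted p = 0.0536). No row joined a listed globin to another record, so that alternative gave no value.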
